A study of Mus musculus with 12 samples.

Results

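Transthyretin and 7 further genes that carry, move, bind, convert or sense thyroid hormone, or take up iodide, were followed through the maturation of the mouse choroid plexus, the secretory tissue of the brain ventricles that makes cerebrospinal fluid. The members were the rows with the symbols Ttr, Slco1c1, Slc5a5, Crym, Dio2, Dio3, Thra and Thrb, 8 of the 52459 symbols in the table. All of the tissue came from mice whose strain is labelled B6, at 4 ages: E12.5 in the embryo, P0 at birth, P14 after 14 days of postnatal life and A6m in adults of 6 months, with 3 libraries per age. The labels of these groups name no mutation, transgene or treatment, and no label gives the ventricle, the sex or a batch. The submitters describe the specimens as independent. A p-value sets a difference between ages against the spread between specimens of the same age, estimated over all 12 libraries. RNA was measured by mRNA sequencing, and levels are TPM, transcript abundance per length with every library set to the same sum.

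Thyroxine, the main hormone released by the thyroid gland, circulates bound to carrier proteins, and transthyretin is its carrier in cerebrospinal fluid, made by the choroid plexus epithelium. The hormone crosses membranes through transporters such as the organic anion transporter encoded by Slco1c1. Inside cells the type 2 deiodinase (Dio2) converts thyroxine to the active triiodothyronine, and the type 3 deiodinase (Dio3) inactivates both hormones. Mu-crystallin (Crym) binds triiodothyronine in the cytosol. The nuclear receptors encoded by Thra and Thrb, usually paired with a retinoid X receptor, turn the hormone signal into transcription. Slc5a5 encodes the sodium iodide symporter, through which the thyroid gland takes up iodide.

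In GRCm38, with GENCODE M21 gene models, Slco1c1 spans chr6:141524368-141570177 (plus strand), Slc5a5 chr8:70882889-70892757 (minus) and Crym chr7:120186380-120202111 (minus). Dio2 spans chr12:90724552-90738438 (minus) and Dio3 chr12:110279068-110281097 (plus). Thra spans chr11:98740638-98769006 (plus) and Thrb chr14:17660261-18038090 (plus). RefSeq promoter windows, the 250 bases before an annotated start in GRCm38.p6, were found for 5 of the 8 members. The windows of 3 members overlapped no annotated exon and are printed 5′ to 3′ on the strand of the gene. They belong to the deiodinase gene whose mean was lower at each later age, to the iodide symporter gene that was near 0 in the embryo, and to the transporter gene with its lowest level at birth. Capitals mark every match, on either strand, to the cAMP response element TGACGTCA, the TATA box TATAAA, the CCAAT box CCAAT, the GC box GGGCGG, the nuclear receptor motif AGGTCA, the Otx-type homeodomain motif TAATCC or the forkhead motif GTAAACA.
Dio2, chr12:90739039-90739288, minus strand: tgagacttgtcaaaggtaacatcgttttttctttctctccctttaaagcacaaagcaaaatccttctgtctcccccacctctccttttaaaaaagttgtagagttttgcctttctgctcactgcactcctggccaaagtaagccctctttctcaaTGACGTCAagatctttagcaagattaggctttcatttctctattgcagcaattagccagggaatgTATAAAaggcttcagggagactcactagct
Slc5a5, chr8:70892758-70893007, minus strand: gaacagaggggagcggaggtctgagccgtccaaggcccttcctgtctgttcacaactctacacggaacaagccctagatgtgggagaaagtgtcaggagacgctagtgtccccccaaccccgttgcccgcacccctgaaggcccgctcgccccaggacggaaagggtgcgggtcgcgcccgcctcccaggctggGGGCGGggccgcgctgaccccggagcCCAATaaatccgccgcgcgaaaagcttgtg
Slco1c1, chr6:141524104-141524353, plus strand: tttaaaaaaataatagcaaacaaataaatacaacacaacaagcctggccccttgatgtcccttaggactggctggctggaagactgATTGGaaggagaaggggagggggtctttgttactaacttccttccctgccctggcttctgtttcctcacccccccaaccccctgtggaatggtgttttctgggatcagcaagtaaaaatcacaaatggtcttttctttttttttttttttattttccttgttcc

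Counted back from the RefSeq start, the Dio2 window held TGACGTCA at -95 to -88 and TATAAA at -30 to -25. The first motif was in 1.55% and the second in 12.4% of the 32851 windows of this length. The Slc5a5 window held GGGCGG at -56 to -51 and CCAAT at -30 to -26, and the Slco1c1 window held CCAAT on its other strand, read as ATTGG, at -164 to -160. These motifs are common, with GGGCGG in 32.7% and CCAAT in 33.8% of all windows. AGGTCA, present in 14% of all windows, was not among the letters of these 3. The same held for the Otx-type motif, in 6.25% of all windows, and for the forkhead motif, in 3.17%. Among the windows not printed, window 1 of Thrb, which overlaps an exon, held AGGTCA at -184 to -179. It also held TAATCC on its other strand at -46 to -41. A match describes letters only, and no binding was measured. The RefSeq start of Dio2 lies upstream of the start of the GENCODE gene model, within the span of the lncRNA Gm26512.

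The tissue label was checked first. All 8 listed markers of choroid plexus epithelium were at 1 TPM or more at every age, and their summed level was 1751 to 2929 TPM at E12.5, 7677 to 8041 at P0, 25608 to 28632 at P14 and 32976 to 35595 at A6m. Most of the sum after birth was Enpp2, with a mean of 3137 TPM at P0, 22527 TPM at P14 and 29183 TPM at A6m. The other 7 markers, a sum taken after these values were seen, had 1490 to 2488 TPM at E12.5, then 4685 to 4835 at P0, 4327 to 4593 at P14 and 4917 to 5240 at A6m. Between P14 and P0, the means of Folr1, Otx2, Clic6, Aqp1 and Trpm3 were lower at P14 and those of Kl, Enpp2 and Kcnj13 higher. Erythroid markers summed to 90.6 to 337 TPM at A6m and 28960 to 37072 TPM at E12.5, and macrophage markers to 13.1 to 22.8 TPM at A6m and 101 to 126 TPM at E12.5. A fall or rise of a transcript in such bulk tissue cannot be told apart from a change in the number of cells of a type. The E12.5 library of replicate 1 stood apart by 93141 TPM of Mir6236, against 17918 and 20543 TPM in the other E12.5 libraries. Neuron markers summed to 13.5 to 85.4 TPM at E12.5, 15.4 to 26.8 at P0, 19.4 to 33.6 at P14 and 11.7 to 12.8 at A6m. All 5 had their highest E12.5 value in replicate 2, with Tubb3 at 51.0 TPM against 7.54 and 18.5 TPM in replicates 1 and 3. Xist was at 139, 0.389 and 89.5 TPM at E12.5, at most 0.808 TPM at P0 and P14, and 148 to 155 TPM at A6m. The Y-linked Ddx3y was at 9.26, 54.4 and 50.9 TPM at E12.5, 108 to 117 TPM at P0, 80.1 to 93.2 TPM at P14 and 0.122 to 0.366 TPM at A6m. Age and this difference therefore cannot be told apart between A6m and P0 or P14. At E12.5, replicates 1 and 3 held both transcripts, which no later library did at such levels. Comparisons with E12.5 therefore also differ in the make-up of Xist and Ddx3y. On the deposited scale most genes drifted down: the median log2 difference over the 17422 tested genes was -0.27 for P0 against E12.5, -0.41 for P14 against P0, -0.04 for A6m against P14 and -0.71 for A6m against E12.5. Values after median-of-ratios scaling, which brings these medians to between -0.02 and 0, are given where they change a direction or a call.

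Of the 8 members, 7 passed the filter of 1 TPM in at least 3 libraries and were tested, and Dio3 did not. Adjusted p-values are from limma on log2(TPM + 1), with Benjamini-Hochberg adjustment over all tested genes, and a call is an adjusted p under 0.05. P0 and E12.5 differed in all 7, of which 4 rose and 3 fell, where 62.3% of all tested genes were called, 18.6% as higher and 43.7% as lower. Between P14 and P0, 6 were called, 3 higher and 3 lower, with 58.8% of all tested genes called, 5.33% higher and 53.5% lower, and scaling left 3 rises and 1 fall. Between A6m and P14, 3 were called, 1 higher and 2 lower, with 20.9% of all tested genes called, 8.78% higher and 12.1% lower. That count was the least stable: 1 member was called without any one of the P0 libraries or A6m replicate 3, 0 without any one P14 library or A6m replicate 1 or 2, and 4 without E12.5 replicate 1. Over the whole span, A6m and E12.5 differed in all 7, 4 higher and 3 lower, with 77.2% of all tested genes called, 15.2% higher and 62.0% lower, and scaling left 4 rises and 2 falls. P14 against E12.5 gave 6 calls, 4 higher and 2 lower (75.5% of all tested genes, 13.4% higher and 62.1% lower), with 5 and 2 after scaling. A6m against P0 gave 6 calls, 3 higher and 3 lower (64.4% of all tested genes, 9.78% higher and 54.6% lower), and the same counts after scaling.

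The libraries of both ages did not overlap for all 7 tested members between P0 and E12.5 (62.7% of all tested genes), P14 and P0 (69.3%), and A6m and E12.5 (76.9%). They did not overlap for 5 between A6m and P14 (44.3%), for 6 between P14 and E12.5 (75.3%) and for 6 between A6m and P0 (73.7%). Scaling evened the split of calls over all genes, to 5047 higher and 5409 lower at P0 against E12.5, where the deposited scale had 3233 and 7615. The corresponding pairs were 3956 and 3454 where the deposited scale had 928 and 9316 at P14 against P0, 2643 and 2434 where it had 1530 and 2112 at A6m against P14, and 6168 and 6230 where it had 2648 and 10798 at A6m against E12.5. They were 5763 and 5991 where it had 2333 and 10825 at P14 against E12.5, and 5171 and 4720 where it had 1704 and 9515 at A6m against P0.

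**Figure D1:**
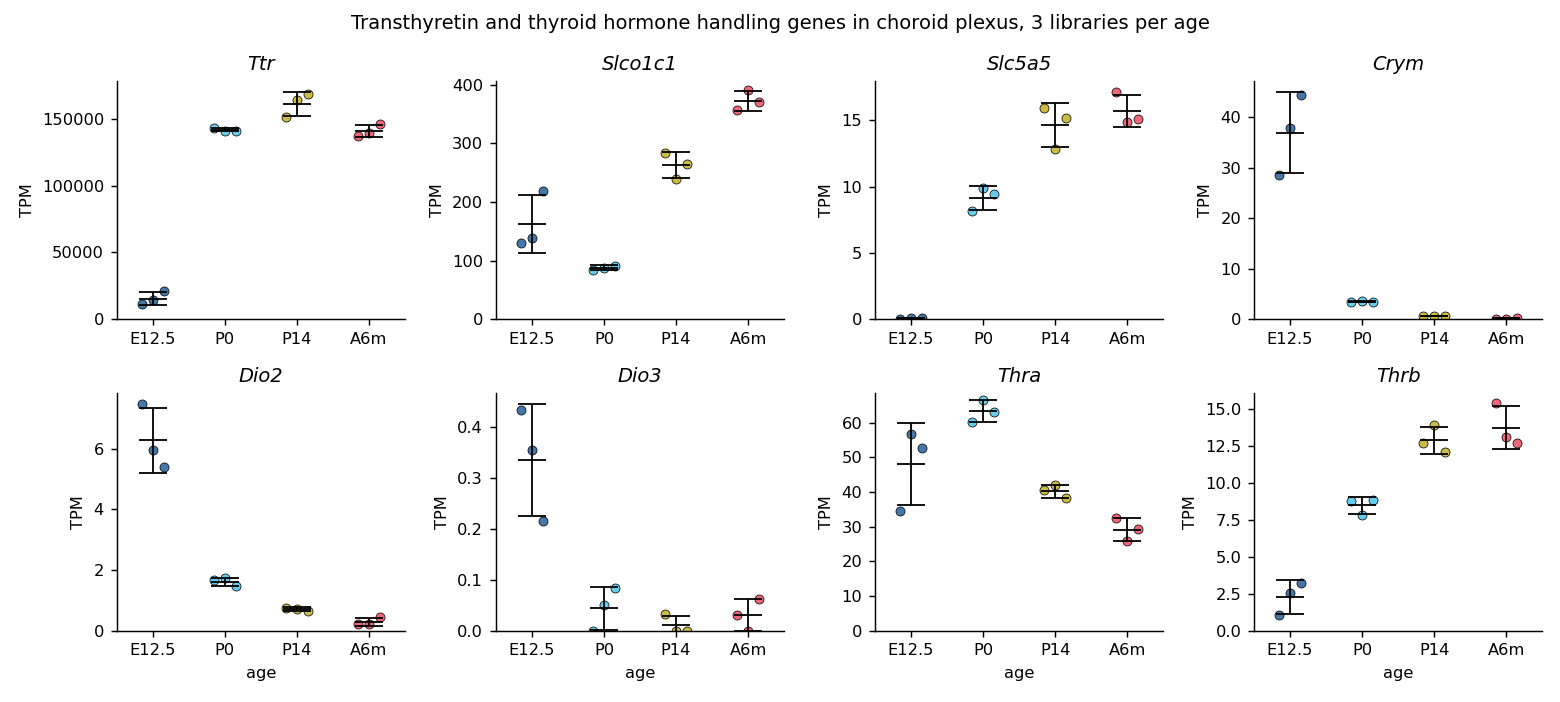
TPM of each of the 8 members (y axis, linear, own range per panel) at the 4 ages (x axis), with points for libraries and black bars for the mean and SD of 3 libraries. Ttr and Slc5a5 step up between E12.5 and P0, Crym and Dio2 step down, and Slco1c1 has its lowest libraries at P0, at 83.2 to 91.5 TPM.

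Ttr (chr18:20665280-20674321, plus strand) was already abundant in the embryo and became the most abundant transcript of the tissue by birth. It had 11200, 14128 and 21003 TPM at E12.5. The P0 libraries had 143164, 141192 and 141475 TPM, the P14 libraries 151576, 164598 and 168699 TPM, and the A6m libraries 137436, 139480 and 146229 TPM. These levels are 1.12% to 2.10% of all TPM at E12.5, 14.1% to 14.3% at P0, 15.2% to 16.9% at P14 and 13.7% to 14.6% at A6m. Ttr rose into birth, averaging 141944 ± 1066 TPM at P0 and 15444 ± 5032 TPM at E12.5 (SD, n = 3 each), a 9.19-fold higher mean and a log2 difference of 3.25 ± 0.2 (SE, limma adjusted p = 1.78e-07). After birth the ages could not be ranked by the test. The P14 libraries all lay above the P0 libraries, with 161624 ± 8940 TPM at P14, and the log2 difference was 0.19 (limma adjusted p = 0.438). A6m libraries lay below the P14 libraries (log2 difference -0.2, limma adjusted p = 0.558) and overlapped the P0 libraries (log2 difference -0.01, limma adjusted p = 0.971). On the scaled values P14 against P0 was 0.70 (limma adjusted p = 0.124) and A6m against P0 was 0.56 (limma adjusted p = 0.188), neither of them called. The summed markers of the epithelium, with or without Enpp2, were higher at P0 than at E12.5 in every library, as Ttr was. The part of cell numbers in the rise of Ttr was not tested.

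The other binding proteins and carriers of the list, which included serum and lipoprotein carriers and the endocytic receptor Lrp2, were mostly low. Of 6 listed, 3 were tested. By birth, P0 against E12.5, 2 rose and 1 fell, with a median log2 difference of 1.07 against -0.27 over all tested genes. Of all tested genes, 18.6% were called higher and 43.7% lower. Apoe, the main apolipoprotein made in brain, averaged 2082 ± 35.2 TPM at P0 and 558 ± 117 TPM at E12.5 (log2 difference 1.92, limma adjusted p = 2.65e-07). It averaged 2905 ± 42.8 TPM at A6m. Lrp2, megalin, fell to 1.81 ± 0.299 TPM at P0, against 13.7 ± 0.796 TPM at E12.5 (log2 difference -2.39, limma adjusted p = 3.18e-08), and was at 0.410 ± 0.0684 TPM at A6m. Rbp4, the retinol binding protein that travels bound to transthyretin, averaged 12.3 ± 2.05 TPM at P0 and 6.09 ± 4.31 TPM at E12.5 (log2 difference 1.07, limma adjusted p = 0.0207). That call was lost without E12.5 replicate 1 or 2 or P0 replicate 1 or 3 (limma adjusted p 0.050 to 0.0804). At P14 against P0, 0 of the 3 rose and 2 fell (median -1.03, all genes -0.41, with 5.33% called higher and 53.5% lower). After scaling 1 rose and 2 fell. Rbp4 then fell to 3.09 ± 1.30 TPM at P14, against its P0 level (log2 difference -1.74, limma adjusted p = 0.00161). Serpina7, the thyroxine-binding globulin of serum, had at most 1.29 TPM in any library and was listed at 0 in all P14 and A6m libraries, and albumin (Alb) had at most 0.489 TPM.

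Slco1c1, whose product carries thyroxine with high affinity at the blood-brain barrier and in choroid plexus, followed another course, with a fall into birth and a rise after it. It had 130.5, 138 and 219.5 TPM at E12.5. It had 83.2, 88.0 and 91.5 TPM at P0, then 283, 239 and 265 TPM at P14 and 357, 391 and 371 TPM at A6m. The libraries of neighbouring ages did not overlap, and all A6m libraries were above all others. Slco1c1 fell to 87.6 ± 4.20 TPM at P0, against 163 ± 49.4 TPM at E12.5 (SD, n = 3 each), a log2 difference of -0.85 ± 0.16 (limma adjusted p = 0.000814), and of -0.56 after scaling (limma adjusted p = 0.00295). It then rose 3.00-fold to 263 ± 22.1 TPM at P14, against P0 (log2 difference 1.57, limma adjusted p = 2.43e-05). A6m, with 373 ± 16.8 TPM, was higher than P14 by 0.51 on the log2 scale (limma adjusted p = 0.0460). This last call was lost when any one of the P0, P14 or A6m libraries was left out (limma adjusted p 0.0615 to 0.143 over these 9 fits). It was also lost after rescaling without Ttr (limma adjusted p = 0.0614) and with no filter (limma adjusted p = 0.104). After median-of-ratios scaling the call was kept, with 0.56 (limma adjusted p = 0.00746). A6m was 2.29-fold above E12.5 (log2 difference 1.23, limma adjusted p = 2.70e-05). Set against Ttr in the same library, Slco1c1 was at 10.6 ± 0.958 TPM per 1000 TPM of Ttr at E12.5, then 0.617 ± 0.0335 at P0, 1.63 ± 0.214 at P14 and 2.65 ± 0.137 at A6m.

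Blood-brain barrier endothelium also contains Slco1c1. Its 4 listed markers summed to 74.3 to 81.8 TPM at E12.5, 73.2 to 83.9 TPM at P0, 35.0 to 37.6 TPM at P14 and 33.9 to 39.2 TPM at A6m, and the 6 general endothelial markers to 322 to 365, 192 to 255, 76.9 to 102 and 21.6 to 34.0 TPM in the same order of ages. Most of the barrier sum was Slc2a1, with a mean of 32.2 TPM at A6m and 64.7 TPM at P0, while Mfsd2a on the same list had 2.41 TPM at A6m and 0.970 TPM at P0. Slco1c1 was 4.26-fold higher at A6m than at P0 (log2 difference 2.08, limma adjusted p = 1.29e-06), and the part of endothelial cells in its levels was not tested.

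The other iodothyronine transporters moved in both directions. Of 13 listed, 11 were tested. Into birth, at P0 against E12.5, 7 rose and 4 fell (median log2 difference 1.13, all genes -0.27), and 7 rose and 3 fell after scaling. At P14 against P0, 2 rose and 5 fell (median -0.63, all genes -0.41), and 4 rose and 4 fell after scaling. At A6m against P14, 1 rose and 4 fell (median -0.18, all genes -0.04). Over the whole span, A6m against E12.5, 3 rose and 5 fell (median -0.09, all genes -0.71), with 5 and 4 after scaling. Over all genes, shares called higher and lower were 18.6% and 43.7% at P0 against E12.5, and 5.33% and 53.5% at P14 against P0. They were 8.78% and 12.1% at A6m against P14, and 15.2% and 62.0% at A6m against E12.5. Slco1a4, an organic anion transporter of brain endothelium and choroid plexus, had 206, 226 and 221 TPM at P0, against 2.83, 7.44 and 10.03 TPM at E12.5. That is the widest gap of the list at birth, with a log2 difference of 4.95 (limma adjusted p = 1.49e-07). Slc3a2, the heavy chain that pairs with the amino acid transporter Slc7a5, averaged 219.8 ± 16.6 TPM at P0 and 89.6 ± 17.1 TPM at E12.5 (log2 difference 1.30, limma adjusted p = 3.78e-06). Slc7a5 itself fell to 3.53 ± 0.464 TPM at P14, against 21.9 ± 3.58 TPM at P0 (log2 difference -2.33, limma adjusted p = 7.44e-07).

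Slc16a10, which encodes a transporter of aromatic amino acids that also accepts thyroid hormone, was lower at each later age. It had 135, 171 and 239 TPM at E12.5, 40.0, 53.6 and 47.2 TPM at P0, 1.67, 1.90 and 2.20 TPM at P14, and 0.434, 0.532 and 0.789 TPM at A6m. Its ages did not overlap at any step, and A6m differed from E12.5 by -6.81 on the log2 scale (limma adjusted p = 2.04e-10). Slco1a5, by contrast, had its highest mean at A6m, with 21.4 ± 0.621 TPM against 3.72 ± 1.84 TPM at E12.5 (log2 difference 2.31, limma adjusted p = 1.15e-06), and Slco1a6 fell to 2.16 ± 0.435 TPM at A6m, against 11.5 ± 2.24 TPM at E12.5 (log2 difference -1.98, limma adjusted p = 6.82e-07).

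**Figure D2:**
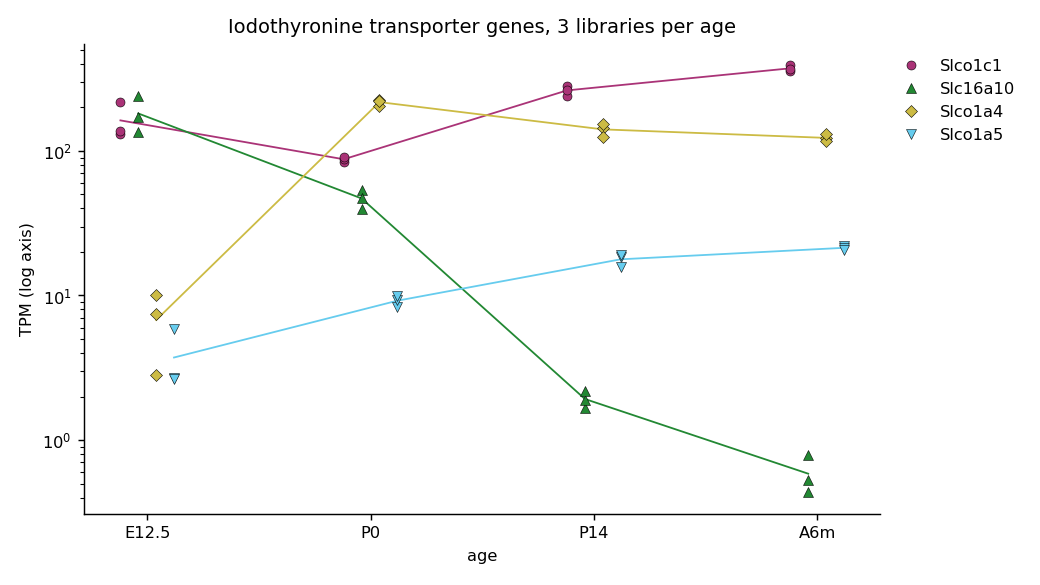
TPM on a log axis (y) of Slco1c1, Slc16a10, Slco1a4 and Slco1a5 at the 4 ages (x), with points for libraries and lines through the mean of 3 libraries. Slc16a10 drops below 1 TPM at A6m, and Slco1c1, lowest at P0, lies above the other 3 at A6m with 357 to 391 TPM.

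Slc5a5 was barely detected in the embryonic tissue and present from birth on. It had 0.0458, 0.0665 and 0.0901 TPM at E12.5. The P0 libraries had 8.12, 9.89 and 9.42 TPM, the P14 libraries 15.9, 12.8 and 15.2 TPM, and the A6m libraries 17.1, 14.9 and 15.1 TPM. The log2 difference of P0 against E12.5 was 3.24 ± 0.11 (limma adjusted p = 4.22e-09), on a scale with 1 TPM added, which understates the change of a gene near 0. Slc5a5 rose again to 14.6 ± 1.63 TPM at P14, against 9.14 ± 0.914 TPM at P0, 1.60-fold (log2 difference 0.62, limma adjusted p = 0.000653). P14 and A6m libraries overlapped, and A6m against P14 gave 0.1 (limma adjusted p = 0.589).

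Most other listed genes of hormone synthesis in the thyroid gland were too low to test. Of 11 listed, 2 passed the filter. The oxidases and their maturation factor (Duox1, Duox2, Duoxa2) and the thyroid transcription factors Nkx2-1 and Foxe1 were at 0.0817 TPM or less in every library, and Foxe1 was listed at 0 in all 12. Pax8, another such factor, had 2.19 TPM in 1 E12.5 library and at most 0.566 TPM in the others. At P0 against E12.5, 1 of the 2 rose and 1 fell, where 18.6% of all tested genes were called higher and 43.7% lower. The one that rose, Slc26a7, an anion exchanger that takes part in iodide handling in the thyroid gland, had 43.9, 55.3 and 48.6 TPM at P0, against 0.584, 0.904 and 0.906 TPM at E12.5 (log2 difference 4.80, limma adjusted p = 4.92e-10). Unlike Slc5a5 it was lower again later, with 16.6 ± 0.993 TPM at P14 against 49.2 ± 5.73 TPM at P0 (log2 difference -1.51, limma adjusted p = 3.19e-06) and 8.19 ± 0.568 TPM at A6m against the P14 level (log2 difference -0.93, limma adjusted p = 0.000164). Thyroglobulin (Tg), the hormone precursor protein, averaged 2.70 TPM at E12.5, 0.732 TPM at P0, 0.126 TPM at P14 and 0.138 TPM at A6m, below the level at which list genes were named by the rule.

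Crym had the largest fall among the members over the series. It had 28.6, 37.9 and 44.5 TPM at E12.5. At P0 it had 3.43, 3.62 and 3.38 TPM, at P14 0.569, 0.584 and 0.618 TPM, and at A6m 0.106, 0.117 and 0.177 TPM, so that each age lay wholly below the one before. Crym averaged 3.48 ± 0.125 TPM at P0 and 37.0 ± 7.997 TPM at E12.5 (log2 difference -3.06 ± 0.14, limma adjusted p = 3.05e-08). P14 against P0 gave -1.49 (limma adjusted p = 1.44e-05). A6m, with 0.134 ± 0.0382 TPM, was lower than P14, with 0.590 ± 0.0253 TPM, by a log2 difference of -0.49 (limma adjusted p = 0.0298), a step between values under 1 TPM. That call was lost without any one P14 or A6m library (limma adjusted p 0.0605 to 0.0854). Neural progenitor markers, which fell along with Crym, summed to 60.4 to 90.7 TPM at E12.5, 9.28 to 13.3 at P0, 3.78 to 7.72 at P14 and 1.82 to 2.36 at A6m. Most of the E12.5 sum was Nes, with a mean of 59.4 TPM, against 5.57 TPM at P0. For Pax6, on the same list, the libraries of E12.5 and P0 overlapped. The summed endothelial, macrophage and erythroid markers were also lower at each later age. The part of any of these cells in the fall of Crym was not tested.

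Both deiodinase genes were low and had their highest level at E12.5. Dio2 had 7.48, 5.95 and 5.39 TPM at E12.5, 1.66, 1.73 and 1.47 TPM at P0, 0.761, 0.729 and 0.648 TPM at P14, and 0.208, 0.218 and 0.452 TPM at A6m. No 2 ages overlapped. Dio2 fell to 1.62 ± 0.130 TPM at P0, against 6.28 ± 1.08 TPM at E12.5 (log2 difference -1.47 ± 0.13, limma adjusted p = 3.45e-06). At P14 it was at 0.713 ± 0.0580 TPM, with a log2 difference from P0 of -0.61 (limma adjusted p = 0.00251) as deposited and -0.35 (limma adjusted p = 0.114) after scaling. At A6m it was at 0.293 ± 0.138 TPM, with a log2 difference from P14 of -0.41 (limma adjusted p = 0.0499). That last call was lost without any one of 9 libraries, all but E12.5 replicates 1 and 3 and A6m replicate 3 (limma adjusted p 0.0568 to 0.154), and after scaling (limma adjusted p = 0.0615). Tanycytes and astrocytes are known sites of Dio2 in brain. Their 5 markers summed to 7.48 to 17.3 TPM at E12.5, 45.0 to 73.1 at P0, 48.5 to 61.2 at P14 and 66.3 to 74.1 at A6m. Within that list Aldh1l1 averaged 48.5 TPM at A6m and 17.4 TPM at P0, and Gjb6 4.90 TPM at A6m and 18.6 TPM at P0. Rax, which marks tanycytes, was listed at 0 in the E12.5 libraries and had 1.38 to 1.54 TPM at A6m. The part of these cells in the levels of Dio2 was not tested. The lncRNA Gm26512 overlaps the Dio2 gene by 238 bases on the opposite strand and averaged 0.826, 1.01, 0.679 and 0.745 TPM at E12.5, P0, P14 and A6m. Whether the authors' counting used strand is not given in the sources used here, so reads in that overlap cannot be told apart.

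Dio3 did not pass the filter and was not tested in the main analysis. It had 0.432, 0.355 and 0.215 TPM at E12.5. At P0 one library was listed at 0 and the others had 0.0498 and 0.0839 TPM, at P14 the only value above 0 was 0.0322 TPM, and at A6m the libraries had 0.0312, 0 and 0.0626 TPM. All E12.5 libraries were above all later ones. In a fit with no filter, Dio3 differed from E12.5 by -0.35 at P0 (limma adjusted p = 0.000773), -0.40 at P14 (0.000201) and -0.37 at A6m (0.000319) on the log2(TPM + 1) scale, all from values under 1 TPM. Dio1, the third deiodinase gene, had at most 0.259 TPM.

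Deiodinases contain selenocysteine, and of the 7 genes listed for deiodination and selenoprotein synthesis 5 were tested. At P0 against E12.5, 0 rose and 4 fell (median log2 difference -0.41, all genes -0.27), and after scaling 0 rose and 1 fell. The fall that held was that of Sephs2, which makes the selenium donor. Sephs2 averaged 8.10 ± 0.390 TPM at P0 and 16.03 ± 0.0620 TPM at E12.5 (log2 difference -0.91, limma adjusted p = 1.26e-05, and -0.63 with 0.000202 after scaling). At A6m against E12.5, 0 rose and 5 fell (median -0.88, all genes -0.71), and after scaling 1 rose and 2 fell. At P14 against P0, 0 rose and 2 fell (median -0.22, all genes -0.41), and after scaling 2 rose and 1 fell. Among all tested genes, 18.6% were called higher and 43.7% lower at P0 against E12.5. The shares were 15.2% and 62.0% at A6m against E12.5, and 5.33% and 53.5% at P14 against P0.

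The receptor genes moved in opposite directions after birth. Thra had 34.6, 56.8 and 52.6 TPM at E12.5, 60.3, 66.6 and 63.0 TPM at P0, 40.6, 42.0 and 38.2 TPM at P14, and 32.4, 25.8 and 29.3 TPM at A6m. Thra was highest at P0 and lowest at A6m, and its P14 libraries lay inside the E12.5 range. Thra averaged 40.3 ± 1.90 TPM at P14 and 63.3 ± 3.14 TPM at P0 (log2 difference -0.64, limma adjusted p = 0.00473), and A6m averaged 29.2 ± 3.28 TPM (log2 difference from P0 -1.1, limma adjusted p = 0.000109). After scaling P14 against P0 was -0.13 (limma adjusted p = 0.314) and A6m against P0 was -0.54, so the lower adult level than at birth held and the step to P14 did not. A6m against P14 was -0.46 and not called (limma adjusted p = 0.0608), but was called after scaling (-0.41, limma adjusted p = 0.0115) and without E12.5 replicate 1 or 2 (limma adjusted p 0.00276 and 0.0406).

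Against the embryo the direction of Thra depended on the scale. P0 was higher than E12.5 by 0.42 (limma adjusted p = 0.0344), and by 0.7 after scaling (limma adjusted p = 0.000128). Without E12.5 replicate 1 the difference was 0.21 (limma adjusted p = 0.0694), and the call was also lost without any one P0 library (limma adjusted p 0.0540 to 0.0925). A6m against E12.5 was -0.67 as deposited (limma adjusted p = 0.00198) and 0.16 after scaling (limma adjusted p = 0.180). P14 against E12.5 was -0.22 (limma adjusted p = 0.221) as deposited, -0.43 (limma adjusted p = 0.00148) without E12.5 replicate 1, and 0.57 (limma adjusted p = 0.000442) after scaling. The gene span of Thra shares 1075 bases with that of Nr1d1, a circadian repressor gene on the opposite strand. Whether the counting used strand is not given, so reads in that stretch cannot be told apart here. Nr1d1 averaged 1.17, 8.15, 6.75 and 19.0 TPM at E12.5, P0, P14 and A6m. The Thra locus also makes a splice form that does not bind hormone, and values per gene do not separate it.

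Thrb had 1.04, 2.58 and 3.23 TPM at E12.5, 8.78, 7.84 and 8.86 TPM at P0, 12.7, 13.9 and 12.1 TPM at P14, and 15.4, 13.1 and 12.7 TPM at A6m. Its libraries separated E12.5, P0 and the later ages, and P14 and A6m overlapped. Thrb averaged 8.49 ± 0.568 TPM at P0 and 2.28 ± 1.13 TPM at E12.5, a 3.72-fold higher mean (log2 difference 1.6 ± 0.22, limma adjusted p = 7.40e-05). P14, with 12.9 ± 0.918 TPM, was above P0 by 0.55 (limma adjusted p = 0.0485), a call lost without any one of 10 libraries, all but E12.5 replicates 1 and 3 (limma adjusted p 0.0527 to 0.126), and with the replicate number as a block (limma adjusted p = 0.0671). After scaling it was 1.02 (limma adjusted p = 0.000705). A6m, with 13.7 ± 1.44 TPM, was above P0 by 0.63 (limma adjusted p = 0.0250), and that call was not made when P0 replicate 2 or A6m replicate 1 was left out (limma adjusted p 0.0728 and 0.0804). A6m differed from P14 by 0.08 (limma adjusted p = 0.848). The antisense gene Gm48321 overlaps the span of Thrb by 90772 bases on the opposite strand, and no level was available under that symbol.

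Within a library the ratio of the receptors does not depend on scaling. Thrb was 2.91%, 4.35% and 5.78% of the summed TPM of Thra and Thrb at E12.5, 12.7%, 10.5% and 12.3% at P0, 23.8%, 24.9% and 24.0% at P14, and 32.2%, 33.6% and 30.2% at A6m. The share climbed at every age with no overlap. In the other direction, Thra exceeded Thrb 23.9 ± 8.70-fold at E12.5, 7.49 ± 0.877-fold at P0, 3.13 ± 0.0942-fold at P14 and 2.13 ± 0.167-fold at A6m.

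**Figure D3:**
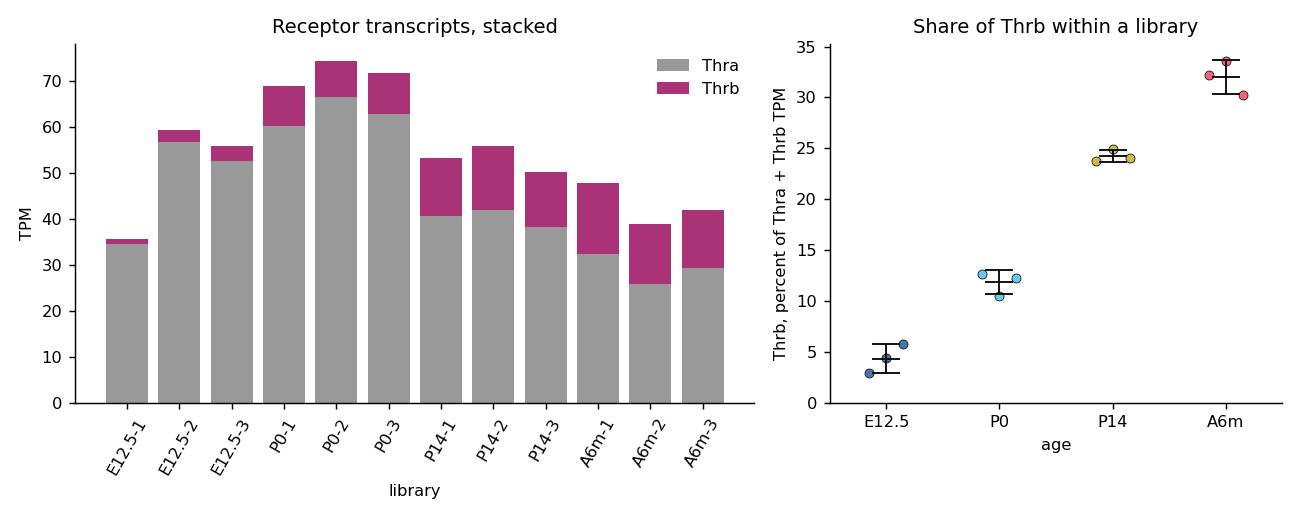
Left, TPM of Thra and Thrb stacked (y axis, from 0) in each of the 12 libraries (x axis); right, Thrb as a percent of their summed TPM at the 4 ages, with points for libraries and black bars for the mean and SD of 3 libraries. The Thrb share averages 32.0% at A6m and 4.35% at E12.5.

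The 12 receptor partners and coregulators all passed the filter. On the deposited scale more of them were called lower than higher, as over all tested genes. The shares of all tested genes called higher and lower were 18.6% and 43.7% at P0 against E12.5. They were 5.33% and 53.5% at P14 against P0, and 15.2% and 62.0% at A6m against E12.5. At P0 against E12.5, 1 of the 12 rose and 7 fell (median -0.27, all genes -0.27), and 3 rose and 3 fell after scaling. Without E12.5 replicate 2, P0 replicate 1 or P0 replicate 3 the 8 calls became 5. At P14 against P0, 0 rose and 6 fell (median -0.35, all genes -0.41), with 1 and 3 after scaling, and at A6m against E12.5, 1 rose and 8 fell (median -0.80, all genes -0.71), with 5 and 5 after scaling. Itgb3, a subunit of the integrin that binds thyroxine at the cell surface, fell most: it averaged 1.61 ± 0.295 TPM at P0 and 13.1 ± 2.65 TPM at E12.5 (log2 difference -2.42, limma adjusted p = 2.04e-07). Ncoa1, a coactivator, rose to 27.1 ± 0.675 TPM at P0, against 15.97 ± 4.26 TPM at E12.5 (log2 difference 0.76, limma adjusted p = 0.00148). The retinoid X receptor genes Rxra and Rxrb were lower at A6m. Rxra averaged 11.0 ± 0.996 TPM at A6m and 23.4 ± 0.892 TPM at E12.5 (log2 difference -1.03, limma adjusted p = 9.63e-07), and Rxrb 10.9 ± 1.15 TPM at A6m and 24.6 ± 1.36 TPM at E12.5 (log2 difference -1.11, limma adjusted p = 9.65e-07). After scaling these differences were -0.23 and -0.30.

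Several genes known to respond to triiodothyronine in brain or liver were higher after birth. Of 7 listed, 6 were tested. In the comparison of P0 with E12.5, 3 rose and 2 fell (median 0.17, all genes -0.27). At P14 against P0, 4 rose and 1 fell (median 0.37, all genes -0.41), with 4 and 0 after scaling, and at A6m against E12.5, 3 rose and 1 fell (median 0.92, all genes -0.71), with 5 and 1 after scaling. Among all tested genes, 18.6% were called higher and 43.7% lower at P0 against E12.5. The shares were 5.33% and 53.5% at P14 against P0, and 15.2% and 62.0% at A6m against E12.5. Klf9, a transcription factor gene induced by the hormone in brain, had 17.7, 13.7 and 14.5 TPM at P0, against 1.44, 1.98 and 2.15 TPM at E12.5 (log2 difference 2.51, limma adjusted p = 5.01e-08). Klf9 rose further to 26.5 ± 1.61 TPM at P14, against 15.3 ± 2.14 TPM at P0 (log2 difference 0.76, limma adjusted p = 0.000493), and A6m averaged 28.2 ± 2.79 TPM. Me1, malic enzyme, a classic hormone-induced gene of liver, averaged 44.7 ± 1.28 TPM at P0 and 27.5 ± 4.66 TPM at E12.5 (log2 difference 0.69, limma adjusted p = 0.00033). It was at 64.3 ± 6.57 TPM at P14 (log2 difference from P0 0.51, limma adjusted p = 0.00331) and at 79.96 ± 4.16 TPM at A6m (log2 difference from E12.5 1.52, limma adjusted p = 3.21e-07).

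Nrgn, the neuronal protein neurogranin, went the other way, with 0.617 ± 0.150 TPM at P0 and 6.10 ± 0.400 TPM at E12.5 (log2 difference -2.14, limma adjusted p = 1.31e-05). Gpd2, a mitochondrial glycerol phosphate dehydrogenase, averaged 10.7 ± 0.900 TPM at P0 and 17.7 ± 1.14 TPM at E12.5 (log2 difference -0.67, limma adjusted p = 4.35e-05), and 16.1 ± 0.727 TPM at A6m. Gpd2 was called higher at P14 than at P0 (0.23, limma adjusted p = 0.0353), and at A6m than at P0 (0.54, limma adjusted p = 0.000228). The P14 call was lost without any one of 5 libraries (limma adjusted p 0.0502 to 0.138) and with the replicate block (limma adjusted p = 0.0644). After scaling it was 0.71 (limma adjusted p = 3.91e-05). Hr and Thrsp stayed near or under 5 TPM, outside the naming rule, and are given because they are classic targets of the hormone in brain and liver. Hr averaged 0.455, 0.0684, 1.27 and 4.78 TPM at E12.5, P0, P14 and A6m, and its A6m libraries were the highest. The E12.5 mean of Hr rested on replicate 3, with 0.0813, 0.0533 and 1.23 TPM in replicates 1 to 3. Thrsp averaged 0.202, 3.40, 1.38 and 0.509 TPM at the same ages and was highest at P0. No hormone level was measured.

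**Figure D4:**
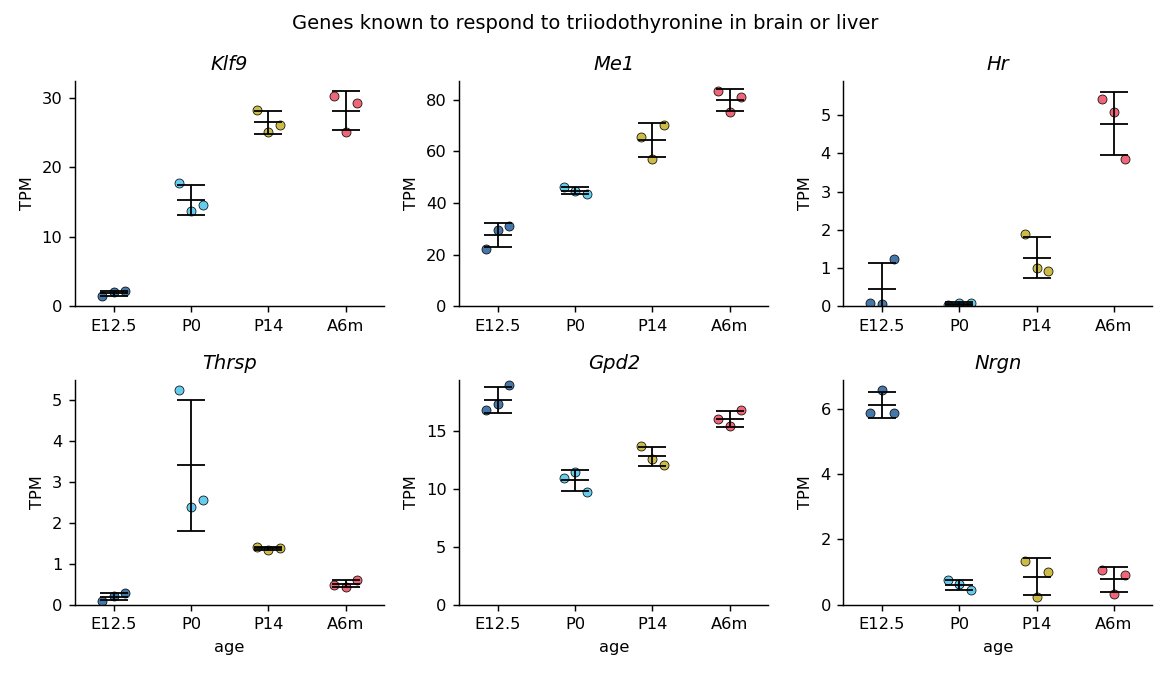
TPM (y axis, linear, own range per panel) at the 4 ages (x axis) of the 6 tested genes known to respond to triiodothyronine, with points for libraries and black bars for the mean and SD of 3 libraries. Klf9 and Me1 climb through P14, Hr is highest at A6m, Thrsp at P0 and Nrgn at E12.5.

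**Figure D5:**
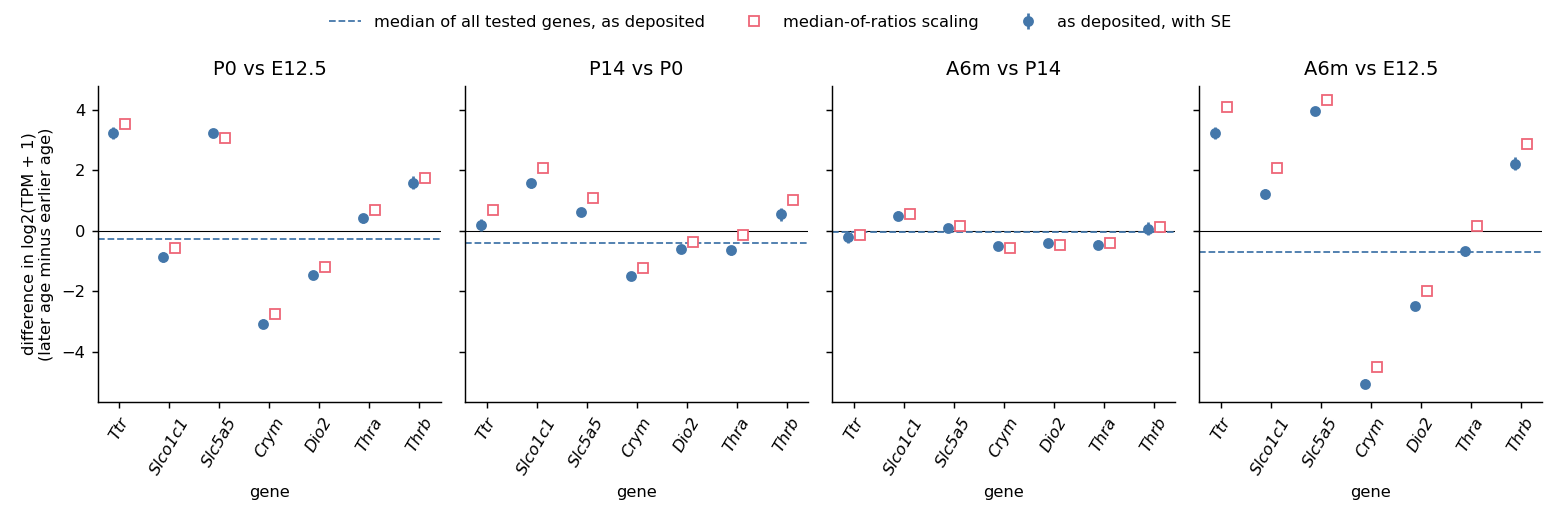
Difference in log2(TPM + 1), later age minus earlier age (y axis), of the 7 tested members (x axis) in 4 comparisons: filled points with SE for deposited values, open squares after median-of-ratios scaling, and a dashed line at the median of all tested genes. Thra at A6m against E12.5 is the member whose sign differs between the scales, at -0.67 and 0.16.

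Across the 12 libraries the members fell into opposed courses, given here as Pearson correlations of log2(TPM + 1) that describe 4 ages and share each library's scale. Ttr and Slc5a5 had r = 0.98, Ttr and Thrb 0.95, and Dio2 and Crym 0.98, while Slco1c1 and Thra had r = -0.85. Ttr and Slco1c1 had r = 0.24. The genes most like each member, among genes averaging at least 10 TPM, were as follows. For Ttr they were Bsg, which encodes basigin (r = 0.995), the sulfate transporter gene Slc13a4 (0.994) and the nucleoside transporter gene Slc28a3 (0.994). For Slc5a5 they were the cation channel gene Trpv4 (0.998), Ppp1r1b (0.998) and the epoxide hydrolase gene Ephx1 (0.997). Thrb was closest to the muscle glycogen phosphorylase gene Pygm (0.994), Gpr108 (0.992) and Sh3d19 (0.991). Dio2 was closest to Cks1b (0.995), Tpm4 (0.995) and the centromere histone gene Cenpa (0.994), and Crym to Stil (0.998), Zic5 (0.998) and Dync1i2 (0.997). The courses of Slco1c1 and Thra were less closely matched. Slco1c1 was closest to Abhd3 (0.973), Otud6b (0.972) and Dmpk (0.960), and Thra to the transcription factor gene Nfia (0.975), Ppp3ca (0.968) and Iqgap2 (0.967).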

How the data were processed

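The authors deposited 1 table of TPM per gene symbol. Per the submitters' processing notes, TPM was computed with kallisto on GRCm38; its version, the annotation, strand use and the way transcripts were combined into genes are not given in the sources used here. Per the labels' protocols, RNA was extracted with Trizol and libraries were made with a Kapa mRNA kit, and the design text gives 100 bp paired ends. TPM keeps no read counts, so depth is unknown and no interval or count test was used. Because every library has the same sum, a rise of an abundant transcript lowers the others. Of the table's 19 columns, 12 were mapped to the 4 ages, and 7 further columns were not used here.

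Genes with TPM of at least 1 in at least 3 libraries, 17422, were tested with limma 3.58.1 in R 4.3.3 (lmFit, eBayes with trend) on log2(TPM + 1) with 4 group means and 8 residual degrees of freedom, after a test on simulated data. P-values were adjusted with Benjamini-Hochberg over all tested genes, with calls under 0.05. The alternatives were a pseudocount of 0.1 or 5, testing without a filter or on genes averaging 5 TPM or more, median-of-ratios scaling (19075 genes), rescaling without Ttr or without the 10 most abundant genes, quantile normalization, a fit of only the 6 libraries compared, a replicate block, and each library left out.

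Lists are described by counts and medians, with no set test. Named from each list were up to 4 called genes per comparison with the largest difference and a mean of at least 5 TPM, of which the text gives a part, and the 3 genes most like each member by Pearson r. Other list genes given, those near 0 and Tg, Hr and Thrsp, lie outside that rule and were chosen after their values were seen. The members and lists were chosen with earlier results of these data known. Tables were made with Python 3.11.15 and pandas 2.3.3. Promoters are from RefSeq (GRCm38.p6) and gene models from GENCODE M21, which held 96.8% of the tested symbols. Some genes of the lists are not reported here by name, and they are included in the counts.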

Additional observations from a re-analysis of the deposited data

How the results depend on the processing

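Of 414 member differences refitted under the alternatives other than leaving out a library, 377 kept their direction and side of the threshold, 21 lost the call, 6 gained it and 10 changed sign. The sign changes were those of Ttr and Thra. Ttr came to 0.00 with quantile normalization in the 3 comparisons among P0, P14 and A6m, where it holds the top rank in each library, and at A6m against P0 it was 0.56 after median-of-ratios scaling and 0.18 without the 10 most abundant genes. Thra at A6m against E12.5 was 0.16 after scaling, and at P14 against E12.5 it was 0.57 after scaling, 0.01 without Ttr, 0.27 without the 10 most abundant genes and 0.36 with quantile normalization. Among list genes Eefsec at P0 against E12.5 was 0.03 with quantile normalization. The count of members called at A6m against P14, 3, was 1 with a pseudocount of 5 and 0 with no filter, and the cause was not tested. Rescaling without Ttr left 3 calls in that comparison, 0 higher and 3 lower, where the main fit had 1 higher and 2 lower. The filter on a mean of 5 TPM removes Dio2.

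With 1 library left out, 460 of 504 member differences kept their direction and side of the threshold, 40 lost the call, 3 gained it and 1 changed sign. The 460 include differences that were called in neither fit. The sign change was that of Ttr at A6m against P0, which ran between -0.04 and 0.01, the upper end without A6m replicate 1. The count of members called ranged over 6 to 7 at P0 against E12.5, 5 to 6 at P14 against P0, 0 to 4 at A6m against P14, 7 to 7 at A6m against E12.5, 6 to 7 at P14 against E12.5 and 5 to 6 at A6m against P0. The count of genes called ranged over 9894 to 11334, 8774 to 11084, 2638 to 4631, 12788 to 13712, 12522 to 13519 and 10038 to 11904 in the same order.

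Replicate numbers gave no sign of pairing: over 18 pairs of equal number, the correlation of deviations ran between -0.078 and 0.108. Over pairs of unequal number it ran between -0.071 and 0.094. Such a check can fail to show pairing but cannot exclude it. With the replicate block, 10568, 9897, 3162, 13334, 13024 and 10940 genes and 7, 5, 2, 7, 6 and 6 members were called in that order, and Thrb at P14 against P0 (limma adjusted p = 0.0671) and Dio2 at A6m against P14 (limma adjusted p = 0.0858) lost their calls. Depth is unknown, so differences between values under 1 TPM, as for Dio3 and the late steps of Crym and Dio2, cannot be weighed against counting error.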
